A study of Zea mays with 217 samples.

Results

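The genes of 8 basic helix-loop-helix (bHLH) transcription factors (TFs) of maize were examined as targets of TF binding. They were bHLH43 (Zm00001d033267), bHLH91 (Zm00001d047017), bHLH108 (Zm00001d025141), bHLH129 (Zm00001d014995), bHLH136 (Zm00001d021019), bHLH162 (Zm00001d024679), bHLH163 (Zm00001d031044) and bHLH172 (GRMZM2G017586). They were chosen by name, with earlier results of these data known, from the 11 bHLH TFs that were themselves profiled. Of the 20067 genes listed as targets, 7 were among the 8 genes, since bHLH162 had no row in the table used here.

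The study profiled 104 TFs by ChIP-seq in 217 libraries. Each TF was expressed from a transformed plasmid in leaf protoplasts of the cultivar B73, made from seedlings of 1 to 2 weeks according to the labels, and its complexes with DNA were isolated on streptavidin beads. Protoplasts are leaf cells without walls, and a TF expressed from a plasmid need not be at its natural level. The authors scored genes with TIP (target identification from profiles), which learns how the peaks of a TF are placed about gene starts and gives peaks at each gene more or less weight accordingly, and deposited 1 p-value for each TF and target. Each of the 11 bHLH TFs had 2 libraries, which are merged in that table, so no p-value has a replicate error, and the table holds no read depth. A pair of a TF and a gene in the table is called an edge, and the in-degree counts the TFs listing a gene.

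bHLH TFs bind DNA as dimers through a basic region, while the helix-loop-helix joins the partners, and many of them bind the E-box, a short palindromic element, or its G-box form. The family is large in plants and takes part in responses to light and jasmonate, iron uptake and the development of epidermal cells. Binding of TFs to the genes of other TFs, and of a family to its own genes, is one way in which regulators are connected to each other.

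RefSeq (assembly Zm-B73-REFERENCE-NAM-5.0) held 7 of the 8 genes under their older identifiers, and these led to 6 RefSeq genes. bHLH43 carried the synonym PIF5 and bHLH163 the synonym PIF4. Phytochrome-interacting factors (PIFs) are bHLH proteins that, in Arabidopsis, promote growth in the dark and are bound by the light-activated phytochromes. The older identifiers of bHLH162 and bHLH172 were synonyms of a single RefSeq gene, so whether these names stand for separate loci could not be settled here. bHLH91 had no match. The build of the reads was B73 RefGen_v4, and positions were not used here.

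The 8 genes received 236 edges, with in-degrees between 0 and 82. bHLH91 was listed by 82 of the 104 TFs (78.8%), and these were 34.7% of all edges to the 8 genes. It was followed by bHLH136 with 42 TFs, bHLH43 with 36, bHLH129 with 35 and bHLH108 with 29. At the low end bHLH172 was listed by 9 TFs, bHLH163 by 3 and bHLH162 by none. The closest neighbours in this order, bHLH43 and bHLH129, were 1 TF apart. An in-degree is a single count with no replicate, so differences of this size have no error to be set against.

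**Figure D1:**
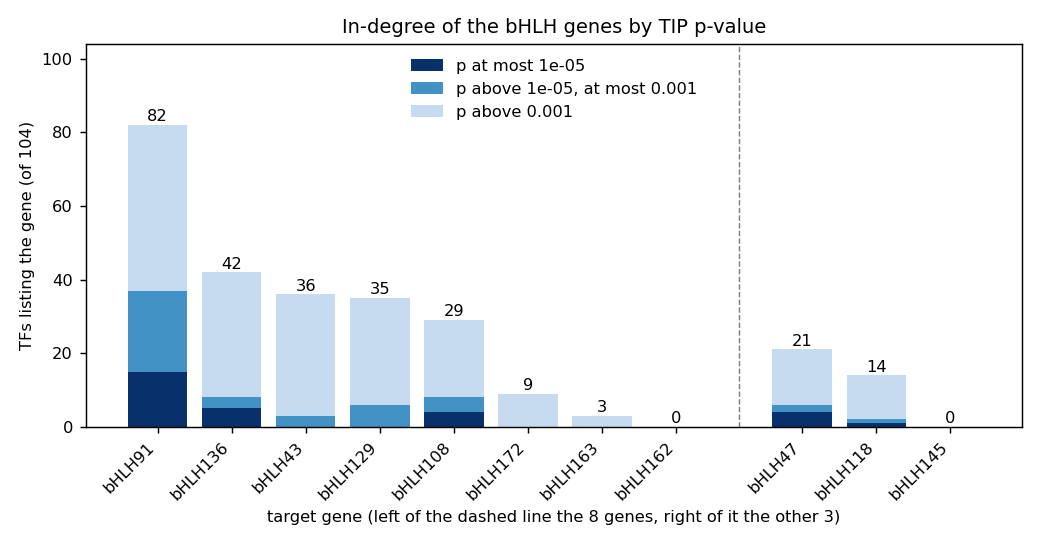
In-degree of the profiled bHLH genes, as the number of TFs out of 104 that list each gene (vertical axis), divided by the TIP p-value of the edge. bHLH91 stands at 82 TFs, the next 4 genes lie between 29 and 42, and bHLH172, bHLH163 and bHLH162 have 9, 3 and 0.

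Set against other genes, the median in-degree was 32 for the 8 genes and 21 for all 11 profiled bHLH genes. It was 15 for the 93 profiled TF genes outside the family and 5 for all target genes. Among families with at least 3 profiled TFs, the medians ran from 2.5 for C2C2-DOF to 86 for NAC. The values for WRKY, EREB and ZIM were 67, 59.5 and 47.5, all above that of the 8 genes, and those for MYB and MYBR were 3 and 6. Genes with no edge count as 0 in all groups of TF genes, and they are absent from the target genes. bHLH91 lay above 98.7% of all target genes, and 11 of the profiled TF genes had a higher in-degree. bHLH136 lay above 90.1% of target genes, bHLH43 above 87.7%, bHLH129 above 87.2% and bHLH108 above 84.1%. bHLH172 was above 61.6% and bHLH163 above 34.2%. bHLH162 was 1 of 8 profiled TF genes that no TF listed. The 3 other profiled bHLH genes were lower than the 5 leading ones, with 21 TFs for bHLH47, 14 for bHLH118 and 0 for bHLH145.

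The strength of the edges differed from gene to gene as well. For bHLH91, 37 of 82 edges (45.1%) had a p of 0.001 or less, and 15 had a p of 1e-05 or less. For the other genes together, 25 of 154 edges (16.2%) reached 0.001, against 27.2% of all edges in the table. Edges to the 93 profiled TF genes outside the family reached it more often than those of the whole table. There, self pairs left out, it was reached by 143 of 297 edges from bHLH TFs and 1186 of 2495 from other TFs. The share of bHLH91 was thus not high for a profiled TF gene. bHLH108 was near the level of the whole table with 8 of 29 edges (27.6%), while bHLH43 had 3 of 36 (8.33%) and no edge at 1e-05. bHLH136 and bHLH129 were between them with 8 of 42 edges (19.0%) and 6 of 35 (17.1%), of which 5 and 0 had a p of 1e-05 or less. No edge to bHLH172 or bHLH163 reached 0.001. The median p was 0.00160 for bHLH91, 0.00685 for bHLH136, 0.00927 for bHLH43, 0.0101 for bHLH129, 0.0131 for bHLH108, 0.0180 for bHLH172 and 0.0416 for bHLH163, against 0.00809 for the whole table. Thus the order by median p was the same as the order by in-degree. TIP p-values are scaled to each TF separately, so each edge was also placed in the list of its TF, where rank 1 is the smallest p.

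**Figure D2:**
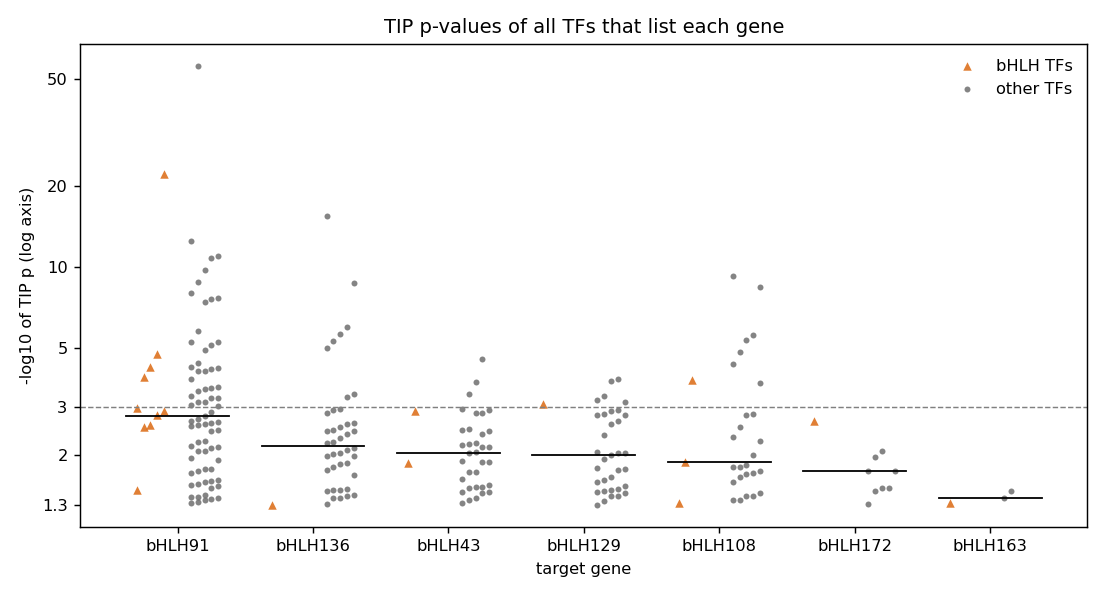
TIP p-values of all edges to the 7 listed genes, as -log10 p on a log axis, with bHLH TFs as triangles on the left and other TFs as dots on the right of each gene. Black lines are medians over all TFs of a gene, the dashed line is a p of 0.001, and the triangle of bHLH172 is its own TF. The highest points are ZIM1 and bHLH145 at bHLH91 and C3H40 at bHLH136.

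The strongest edge to bHLH91 came from ZIM1, with a p of 7.5e-57. ZIM proteins carry the TIFY motif, and the JAZ proteins among them repress jasmonate signalling by binding other TFs. bHLH91 was the 10th of 1526 targets of ZIM1. The next was bHLH145, with a p of 5.19e-23 and bHLH91 at place 16 of 2413 targets. It was followed by MYBR87 with a p of 3.5e-13, TCP23 with 9.54e-12 and EREB71 with 1.49e-11. MYBR TFs are relatives of MYB, TCP TFs are known for roles in organ growth, and EREB TFs are members of the AP2/ERF family. bHLH91 was 25th of the 3422 targets of EREB71, and it was among the first 10% of targets for 12 TFs. The largest p was 0.0475, from WRKY94, in whose list bHLH91 was 2851st of 2932.

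In contrast to this, the bHLH91 protein listed 21 targets, the fewest of all profiled TFs, and none of them was 1 of the 11 bHLH genes. The gene was thus the most widely listed of the 11, and its protein had the shortest list. With so few targets, its own edges say little on what it binds, and the reason for the short list was not tested. The 22 TFs that did not list bHLH91 included bHLH91 itself and came from 13 families. They included 5 of the 7 GLK TFs (GLK1, GLK2, GLK9, GLK11 and GLK53), which belong to the Golden2-like family, known for GLK1 and GLK2 in chloroplast development.

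The gene next in number to bHLH91, Zm00001d047018, was listed by 65 TFs, and 63 of these also listed bHLH91. That is 96.9% of the TFs of Zm00001d047018 and 76.8% of those of bHLH91. For neighbouring gene starts that share peaks, TIP can score both from the same peaks. Whether this holds here was not tested, since peak positions were not used. The gene before it in number, Zm00001d047016, was not listed. Around bHLH136, the gene Zm00001d021018 was listed by 20 TFs, of which 7 (35.0%) also listed bHLH136. That is no more than the 40.4% of all TFs that listed bHLH136. At bHLH43, bHLH108, bHLH129 and bHLH163, the neighbours by number were listed by 0 to 7 TFs and shared at most 2. Of the neighbours of bHLH162, Zm00001d024678 was listed by 29 TFs and Zm00001d024680 by 1.

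bHLH136 received its strongest edge from C3H40, a zinc finger protein, with a p of 3.65e-16, as the 57th of 2310 targets. GLK9 followed with a p of 1.88e-09, in whose list bHLH136 was 49th of 2760. The p was 1.03e-06 for MAB16, 2.42e-06 for GATA12 and 5.02e-06 for ALF2. C3H40, GLK9 and GATA12 were all among the TFs that did not list bHLH91. The largest p of bHLH136 was that of bHLH47 (0.0496), which was its sole bHLH TF.

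bHLH108 had a pair of strong edges, from MYBR41 with a p of 5.59e-10 and from DOF21 with 3.46e-09. It was 62nd of the 3176 targets of MYBR41 and 267th of the 1603 targets of DOF21. HB84 followed with a p of 2.54e-06, EREB34 with 4.49e-06 and ZIM28 with 1.48e-05. The largest p was that of bHLH118 (0.0474). All 29 TFs of bHLH108 also listed bHLH91.

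The strongest edges to bHLH43, which carries the PIF5 synonym, were weaker than those to bHLH108, although its median p was smaller. The smallest p was that of bZIP38 (2.78e-05), with bHLH43 at place 594 of 2544 targets. It was followed by EREB34 with a p of 1.84e-04, MYBR43 with 4.32e-04, bZIP113 with 0.00107 and COL13 with 0.00114. bHLH43 was in the first 10% of targets for none of its 36 TFs, and its best place was within the first 21.0% of a list, that of bHLH118. DOF17 had the largest p (0.0482).

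For bHLH129, the smallest p was 1.47e-04, from GLK25, in whose list it was 209th of 2990. COL2 followed with a p of 1.77e-04, ZIM1 with 4.75e-04, EREB109 with 6.2e-04 and COL8 with 7.12e-04. COL TFs are relatives of CONSTANS, a regulator of flowering by day length in Arabidopsis. The largest p was that of EREB209 (0.04995), for which bHLH129 was the last of 2159 targets.

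bHLH172 and bHLH163 had few and weak edges. The smallest p of bHLH172 was that of its own TF, 0.00214, at place 1080 of 3019 targets. The authors removed peaks within the locus of each TF because reads of the plasmid map there, so an edge of a TF to its own gene is less certain than others. The other 8 TFs of bHLH172 were TCP10 (p of 0.00856), MYBR41 (0.0111), MYBR17 (0.0180), ZIM27 (0.0180), MYBR43 (0.0312), COL13 (0.0315), bZIP40 (0.0338) and HB70 (0.0485). bHLH172 was the 1 target whose identifier was of the older form. bHLH163, with the PIF4 synonym, was listed by EREB97 with a p of 0.0343, EREB209 with 0.0416 and bHLH129 with 0.0476. In all 3 lists it was near the end, with places at 76.9, 86.7 and 96.4% of the list. The genes of the PIF5 and PIF4 synonyms thus differed 36 to 3 in the number of TFs, and they shared none. Since 34.6% of all TFs listed bHLH43, the lack of a shared TF among only 3 says little.

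The question of how far the family is connected with itself was addressed by the edges from the 11 bHLH TFs to the 8 genes. Leaving out the pairs of a TF with its own gene, 18 of 80 possible pairs were listed (22.5%). The 93 other TFs listed 217 of 744 pairs (29.2%). Towards the 93 profiled TF genes outside the family, the share was 29.0% for bHLH TFs and 29.2% for other TFs, and over all target genes it was 13.4 and 13.0%. The 18 edges were unevenly spread. bHLH91 was listed by 10 of 10 other bHLH TFs, and by 72 of 93 TFs of other families (77.4%). Without bHLH91 as a target, bHLH TFs listed 8 of 70 pairs (11.4%) and other TFs listed 145 of 651 (22.3%). When the TF bHLH91 was also left out, because of its 21 targets, the bHLH share was 8 of 63 (12.7%). Counting only edges with a p of 0.001 or less, the shares were close, with 6 of 80 pairs (7.50%) for bHLH TFs and 56 of 744 (7.53%) for other TFs. Without bHLH91 as a target they were 2 of 70 (2.86%) and 23 of 651 (3.53%). The lower bHLH share at the 8 genes thus rested on edges with a p above 0.001. At the same limit, bHLH TFs listed 14.0% and other TFs 13.9% of pairs with the 93 profiled TF genes outside the family. Over all target genes these shares were 2.91 and 3.63%, close to those of the 8 genes without bHLH91. No test was made of any of these shares.

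The p-values of the 10 bHLH TFs at bHLH91 ranged over many orders of magnitude. bHLH145 had 5.19e-23, followed by bHLH172 with 1.73e-05, bHLH162 with 5.47e-05 and bHLH108 with 1.23e-04. These 4 had a p of 0.001 or less. The values were 0.00103 for bHLH43, 0.00122 for bHLH136, 0.00155 for bHLH47, 0.00258 for bHLH118 and 0.0029 for bHLH163. bHLH129 was last with a p of 0.0333, and bHLH91 was 2249th of its 2935 targets. bHLH145 therefore stood apart from the others, and 9 of the 10 placed bHLH91 within the first 27.5% of their lists.

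The other 8 edges led to 5 genes. bHLH108 was listed by bHLH145 (p of 1.61e-04), bHLH136 (0.0131) and bHLH118 (0.0474). bHLH43 was listed by bHLH118 (0.00126) and bHLH108 (0.0136), bHLH129 by bHLH47 (8.01e-04), bHLH136 by bHLH47 (0.0496) and bHLH163 by bHLH129 (0.0476). No pair of bHLH TFs listed each other. The edges to bHLH91 could not be returned, since that TF listed none of the 11 genes, and the few remaining edges leave little room for such pairs. Of the 11, only bHLH172 listed its own gene. The sources bHLH47, bHLH118 and bHLH145 are outside the 8, and 10 of the 18 edges ran between the 8 themselves. bHLH47 and bHLH118 listed 3 of the 8 genes each, and bHLH43, bHLH162, bHLH163 and bHLH172 listed no other of the 8 genes than bHLH91, apart from the own gene of bHLH172. The genes of bHLH162 and bHLH145 received no edge, although the TFs had 3053 and 2413 targets.

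**Figure D3:**
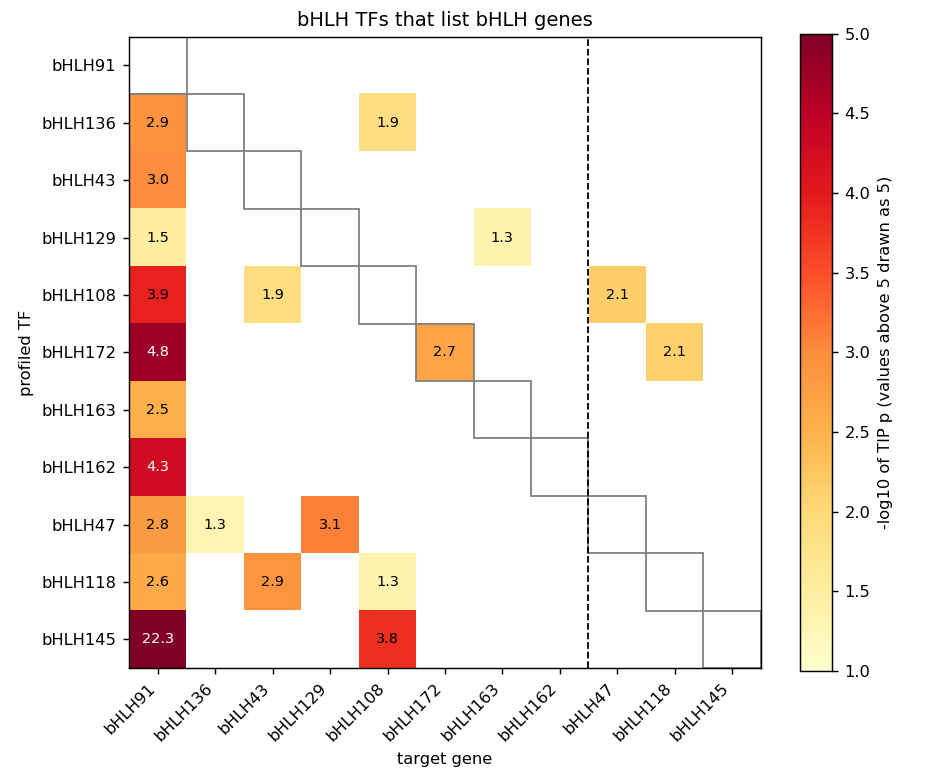
Edges among the 11 profiled bHLH TFs, with TFs as rows and target genes as columns, and with -log10 of the TIP p as colour and number. Framed cells are a TF with its own gene, blank cells are pairs that are not in the table, and the 3 genes right of the dashed line are not among the 8. The column of bHLH91 is filled by all 10 other bHLH TFs, and its row is empty.

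To see whether the share of bHLH TFs listing a gene differed from the share of other TFs, a two-sided Fisher's exact test was made for each of the 20067 target genes, leaving out the own TF of a gene and adjusting by Benjamini-Hochberg over all genes. None of the 7 listed genes passed an adjusted p of 0.05, and 1 of them, bHLH136, had an unadjusted p under 0.05. Among all target genes, the share listed more often by bHLH TFs with an adjusted p under 0.05 was 0.458%, and the share listed less often was 0.00498%. bHLH136 was listed by 1 of 10 bHLH TFs and by 41 of 93 other TFs (44.1%), with a p of 0.0451 before and 0.715 after adjustment by Fisher's exact test and Benjamini-Hochberg. bHLH91, with 10 of 10 against 72 of 93, had an unadjusted p of 0.208 in the same exact test. This is the smallest p that a higher share among bHLH TFs could give for bHLH91, so the test could not call it in that direction. The same holds for bHLH163, whose 3 TFs allow no exact p below 6.79e-04, while the largest unadjusted p that was called was 2.14e-04. bHLH129 (1 of 10 against 34 of 93) and bHLH43 (2 of 10 against 34 of 93, 36.6%) had lower shares among bHLH TFs, with unadjusted p-values of 0.158 and 0.488 in the exact test. A lower share could not be called at bHLH136, bHLH129 or bHLH43, nor at bHLH108, bHLH172 or bHLH163. With only 10 bHLH TFs, the exact p would stay above 2.14e-04 even if none of them listed the gene. bHLH108 was alike in both groups with 30.0 and 28.0%. TFs of a family bind alike and are not independent of each other, and a p that misses the threshold does not show that the shares are equal.

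Other families were distributed differently over the 8 genes. Among families with at least 3 profiled TFs, the C2C2-COL TFs listed the largest share of pairs (18 of 40, 45%), followed by ZIM with 20 of 48 (41.7%) and EREB with 36 of 112 (32.1%). COL18 is outside the C2C2-COL family in the TF list of the study, and with COL18 counted in, a choice made after the values were seen, COL TFs listed 19 of 48 pairs (39.6%), below ZIM. The lowest shares were those of GLK with 9 of 56 (16.1%) and bHLH with 22.5%. Without the TF bHLH91 and its short list, the bHLH share was 18 of 73 (24.7%), above HB with 13 of 56 (23.2%). The same C2C2-COL TFs listed 38.9% of the pairs with the 93 other profiled TF genes and ZIM TFs 35.5%, so both were high for TF genes at large. Towards the 93 genes GLK TFs were the lowest as well, with 22.5%.

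The families were also unevenly spread over single genes. Of the MYB TFs, all 9 listed bHLH91, 7 of 9 listed bHLH136, and 1 of 9, MYB37 in both cases, listed bHLH129 and bHLH108. Their p-values at bHLH136 ran from 4.16e-04 (MYB4) to 0.0387, with a median of 0.00361. The 3 NAC TFs all listed bHLH136, with p-values from 5.38e-04 (NAC109) to 0.00286, and none of them listed bHLH129 or bHLH108. C2C2-DOF TFs were similar, with 3 of 4 at bHLH136 and 0 of 4 at bHLH129. Of the C2C2-COL TFs, 4 of 5 listed bHLH129, and 3 of 5 listed each of bHLH136 and bHLH108. ZIM TFs listed bHLH43, bHLH108 and bHLH129 in 4 of 6 cases each, and bHLH136 in 2 of 6. Of the MYBR TFs, 3 of 10 listed bHLH172, which made up 3 of its 9 TFs. GLK TFs listed bHLH91 in 2 of 7 cases and bHLH108 in none. At bHLH47, a bHLH gene outside the 8, all 7 GLK TFs were listed, with p-values from 1.23e-06 (GLK2) to 0.0454. These families were picked from the 12 after their values were seen, and no test was made of them.

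**Figure D4:**
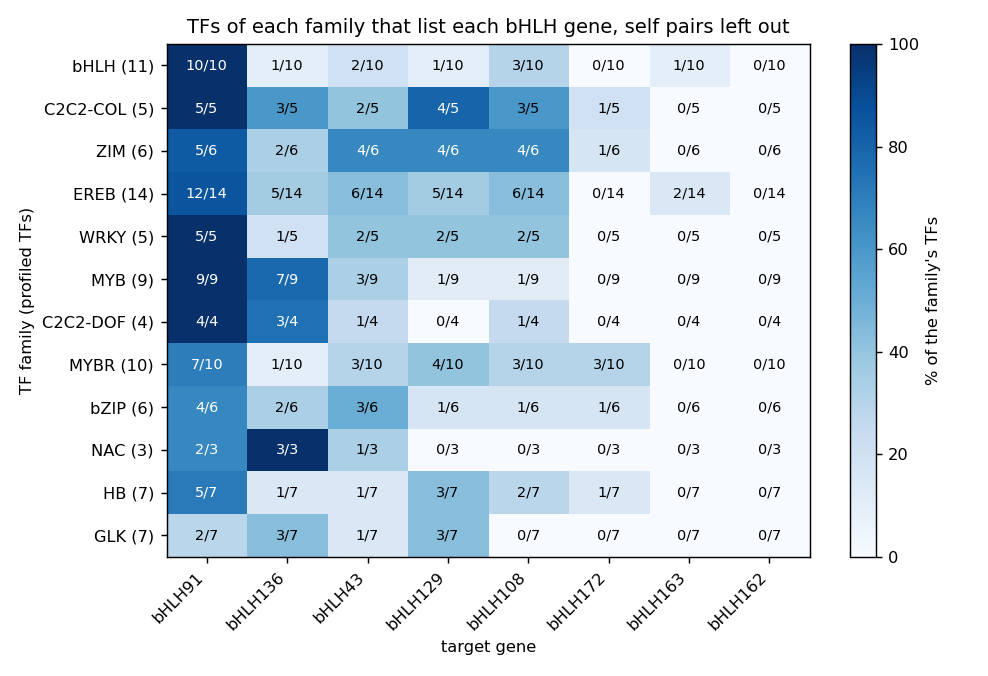
Number of TFs of each family that list each of the 8 genes, as listed over possible TFs, with colour as the percentage of the family. Families with at least 3 profiled TFs are shown, bHLH at the top. The column of bHLH91 is dark except for GLK (2 of 7), and that of bHLH136 is dark for MYB (7 of 9), C2C2-DOF (3 of 4) and NAC (3 of 3).

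The TFs of the 8 genes overlapped to different degrees. Of the TFs that listed another of the genes, the share that also listed bHLH91 was 100% for bHLH108 (29 of 29) and bHLH163 (3 of 3), 94.3% for bHLH129 (33 of 35), 88.9% for bHLH172 (8 of 9), 83.3% for bHLH43 (30 of 36) and 81.0% for bHLH136 (34 of 42). These shares are to be read against the 78.8% of all TFs that listed bHLH91. Conversely, these TFs were between 3.66 and 41.5% of the TFs of bHLH91. By the Jaccard index (TFs shared by both genes over TFs of either), the highest value was 0.393, for bHLH91 and bHLH129, and the next was 0.378, for bHLH91 and bHLH136.

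Among the 4 genes next to bHLH91, bHLH129 and bHLH108 were the closest pair. They shared 17 TFs, which were 48.6% of those of bHLH129 and 58.6% of those of bHLH108 (Jaccard index 0.362). bHLH108 and bHLH43 shared 15 TFs (0.300) and bHLH129 and bHLH43 shared 16 (0.291). By the Jaccard index bHLH136 was the most separate of the 4, with 10 TFs shared with bHLH108 (0.164). These were 23.8% of its own TFs and 34.5% of those of bHLH108. Both are near the shares of all TFs, 27.9% for bHLH108 and 40.4% for bHLH136, so they do not show that the genes avoid each other's TFs. bHLH172 shared 6 of its 9 TFs with bHLH129 and 5 with bHLH108. bHLH163 shared its 3 TFs with bHLH91, 1 of them with bHLH129, and none with the other genes.

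**Figure D5:**
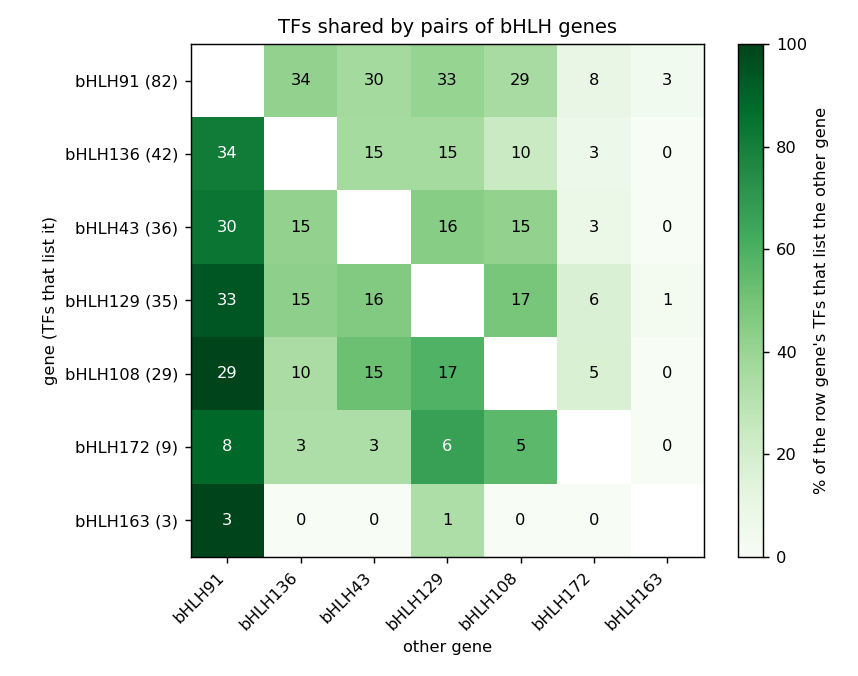
TFs shared by pairs of the 7 listed bHLH genes. Numbers count the shared TFs, and the colour is their percentage of the TFs of the gene in the row, whose in-degree is in brackets. The column of bHLH91 is darkest, from 81.0 to 100%, and the pair bHLH136 and bHLH108 shares 10 TFs.

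Counted by TF, 93 of the 104 TFs listed at least 1 of the 8 genes, and 11 listed none. Of the 93, 11 did not list bHLH91, and 11 listed bHLH91 and no other of the genes. One gene was listed by 17 TFs, 2 genes by 35, 3 genes by 21, 4 genes by 15 and 5 genes by 4 TFs. COL13 listed the most, 6 of the 8, lacking bHLH162 and bHLH163. It was followed by MYB37, MYBR43, TCP10 and ZIM3 with 5 each. COL13, MYB37 and ZIM3 were the 3 TFs that listed all of bHLH43, bHLH91, bHLH108, bHLH129 and bHLH136. These TFs were picked for their counts, and their lists held from 2666 targets for MYBR43 to 3361 for TCP10. GLK53 and HB66, with 3135 and 3021 targets, listed none of the 8 genes.

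For each of the 6 genes with at least 5 TFs, the target genes with the most similar set of TFs were sought over the 104 TFs, leaving out the own TF of the gene. The most similar to bHLH91 was Zm00001d052165, with 77 shared TFs and a Jaccard index of 0.828. Zm00001d046632 (0.826) and Zm00001d002405 (0.823) followed, which the hub list of the study assigns to the MYB and WRKY families. All of them were listed by at least 86 TFs, and genes that most TFs list must share most of them. For bHLH129 the first were Zm00001d047955 (0.560, 28 shared TFs), Zm00001d042214 (0.491) and Zm00001d005766 (0.491). For bHLH136 they were Zm00001d013099 (0.524, 33 shared), Zm00001d051635 (0.485) and Zm00001d047579 (0.476). bHLH43 was closest to Zm00001d039338 (0.483, 28 shared), Zm00001d007274 (0.456) and Zm00001d012748 (0.453). The closest to bHLH108 were Zm00001d010956 (0.479, 23 shared), Zm00001d019358 (0.469) and Zm00001d012642 (0.465). bHLH172 came last with Zm00001d013849 (0.375, 6 shared), Zm00001d007872 (0.364) and Zm00001d039598 (0.364). None of these 18 genes was a profiled TF, so no other bHLH gene examined here was as close to any of the 6 as they were.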

How the data were processed

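The p-values are those the authors deposited, for 272627 TF-target pairs, and they run from 0 to just under 0.05. The authors aligned reads to B73 RefGen_v4 with Bowtie2 2.2.5, filtered them with SAMtools 1.3 and used SPP with input libraries to find peaks. They took out peaks in blacklisted regions and in the gene locus of the TF under study, and retained those that the replicates shared by IDR. TIP was then run at a false discovery rate they set. For TIP a version is not given in the sources. TFs were named and put into families by the TF list of the study, and 0 further columns of sample values were present.

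Every pair in the table counted as an edge, and no further threshold was applied. In-degrees, ranks, shares and Jaccard indices are counts from the table. The share of bHLH TFs listing a gene was compared with that of other TFs by a two-sided Fisher's exact test per gene, adjusted by Benjamini-Hochberg over 20067 genes at 0.05. The test was checked on simulated data in which TFs listed genes independently of each other. That check does not cover TFs of a family that bind alike. Each gene with up to 12 TFs had all of them named. For the others, the 5 smallest p-values, the largest and all bHLH TFs were named, together with the 3 most similar genes and the neighbours by identifier number. The genes and lists were chosen with earlier results of these data known. Other TFs and families were named after their values were seen. As alternatives, edges were limited to a p of at most 0.001 or 1e-05 or to the 500 best targets per TF, TFs with fewer than 500 targets were left out, self pairs were included, and the test was limited to genes with an in-degree of at least 5. Promoter and protein sequences were not used here. Calculations were made with scipy 1.17.1, pandas 2.3.3 and numpy 2.4.6 in Python 3.11.15.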

Additional observations from a re-analysis of the deposited data

How the results depend on the processing

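With edges of p at most 0.001, 62 of the 236 edges to the 8 genes and 6 of the 18 bHLH-to-bHLH edges were left, the median Jaccard index of gene pairs was 0.0233 in place of 0.158, and 6 target genes in place of 93 differed between bHLH and other TFs (Fisher's exact test, adjusted). With p at most 1e-05 the values were 24 edges, 1 bHLH-to-bHLH edge (bHLH145 to bHLH91), a median index of 0 and 0 genes. With the 500 best targets per TF they were 35, 4, 0 and 21. Fewer edges are counted in each of these by construction. bHLH91 had the highest in-degree of the 8 in all 3, with 37, 15 and 23 TFs, and bHLH162 had 0. The number of differing genes was 176 without the 3 TFs under 500 targets, bHLH91 among them, and 169 when genes listed by at least 5 TFs were tested. It was 93 with the own TF included. Those of the 8 genes that could be tested had no call in any of these settings. bHLH162 was never tested, and bHLH91, bHLH108 and bHLH136 were the 3 tested at 1e-05. At 0.001 bHLH43 and bHLH129 were tested as well, and with the 500 best targets bHLH129 was. With self pairs included, the bHLH-to-bHLH edges were 19. No paired analysis was possible because the replicates of a TF are merged in the table, and for the same reason no replicate could be left out in turn. The table gives no read depth, so what depth limits cannot be read from it.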

Other observations

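A pair of bHLH genes outside the profiled TFs is in the hub list of the study, which was made from in-degrees in these data. bHLH91 was listed by 82 TFs, 37 of them with a p of 0.001 or less, against 89 TFs (63 such edges) for Zm00001d020834 and 86 TFs (42 such edges) for Zm00001d031441. All profiled bHLH TFs but bHLH91 listed Zm00001d020834 (10 of 11, 90.9%), as did 79 of the 93 other TFs (84.9%). For 9 of these 10 bHLH TFs, Zm00001d020834 was within the first 1.74% of targets. It was the 2nd target of bHLH118, bHLH136, bHLH162 and bHLH172, with p-values of 7.04e-13, 4.91e-14, 6.24e-13 and 2.24e-20. bHLH108 was the exception, with a p of 0.0302 and place 2066 of 2607. At Zm00001d031441, 9 of the 11 bHLH TFs were present (81.8%), against 77 of the 93 other TFs (82.8%). Of the bHLH TFs, bHLH91 and bHLH145 were missing. The bHLH TF with the smallest p there was bHLH136 (8.05e-05), while bHLH145 had the smallest at bHLH91.

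The TFs labelled bHLH162 and bHLH172, whose older identifiers lead to 1 RefSeq gene, shared 2063 targets, 67.6% of the 3053 of bHLH162 and 68.3% of the 3019 of bHLH172. Their Jaccard index of 0.515 was the 2nd highest of the 55 pairs of bHLH TFs. TFs whose older identifiers led to different RefSeq genes reached the same level, as bHLH43 did with bHLH163 (0.539) and with bHLH118 (0.512). Neither bHLH162 nor bHLH172 listed the gene of the other, and the gene of bHLH162 has no edge at all.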
